A study of Mus musculus with 6 samples.

Results

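The small leucine-rich proteoglycans (SLRPs) were examined in 10T1/2 cells, a mouse embryonic fibroblast line. The 8 genes Dcn, Bgn, Lum, Fmod, Ogn, Omd, Aspn and Prelp were followed through every probe set that the platform annotation assigns to 1 of them and to no other gene. This gave 19 probe sets, 18 of the 22690 on the Affymetrix MOE430A array and 1 of the 22575 on MOE430B. There is 1 group of 3 samples, numbered 1, 4 and 5, and each was hybridised to 1 array of each design. The cells carry no stated treatment or genetic change. All were grown in DMEM with 10% fetal bovine serum and harvested at 80% confluency, and biotin-labelled target was made from their total RNA. According to the labels, the data were meant for removing from stem cell profiles the genes that stem cells have in common with this line. They also say that the best 3 samples were to be used, and whether these came from separate cultures is not stated, so part of their spread may be technical. With 1 group there was no comparison between groups to test, and the samples were set against each other by value.

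SLRPs are secreted proteins built round a solenoid of leucine-rich repeats, most of them carrying chondroitin, dermatan or keratan sulfate chains. Connective tissue cells deposit them along collagen fibrils, where they bind the fibril surface, govern how fibrils thicken and fuse, and hold growth factors such as TGF-beta and BMPs. Class I comprises decorin (Dcn), biglycan (Bgn) and asporin (Aspn), class II comprises lumican (Lum), fibromodulin (Fmod), PRELP (Prelp) and osteomodulin (Omd), and class III includes osteoglycin (Ogn). Most of these genes lie in small chromosomal clusters that arose by duplication.

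Signals are MAS5 intensities on a linear scale, each array scaled on its own, and are given in the order of samples 1, 4 and 5. No detection calls were used here, and each array was given a background limit, the 95th percentile of its signals for genes that belong to tissues far from fibroblasts. These were 124 probe sets of 95 genes on MOE430A but only 13 probe sets of 11 genes on MOE430B, so the limit of MOE430B, and each statement made by it, is less firmly set. The limit was 1312, 1338 and 968 on the MOE430A arrays and 3831, 3272 and 4126 on the MOE430B arrays. A gene counted as above the limit when any of its probe sets exceeded it on 3 of 3 arrays. By this rule 10 of 12 fibroblast markers were above the limit, against 25.3% of all measured genes. For the other cell types, 0 of 7 cartilage, 0 of 5 bone, 0 of 5 fat cell, 0 of 6 skeletal muscle, 0 of 6 endothelial and 0 of 6 leukocyte markers were, along with 1 of 6 tendon markers (Egr1, which many cells express) and 1 of 6 epithelial markers (Epcam, above on MOE430B and below on MOE430A). No marker was listed at 0. The arrays differed in the ratio of 3' to 5' signal of Gapdh, which was highest in sample 1 (24.7 on MOE430A and 23.4 on MOE430B) and lowest in sample 5 (10.6 and 11.5). The ratio of Actb was also highest in sample 1 (17.5 and 20.2). It was lowest in sample 5 on MOE430A (8.68) but in sample 4 on MOE430B (8.23). Thus on every array the 3' signal of both genes was at least 8.2 times the 5' signal. On MOE430A the array of sample 5 was washed on fluidics station 2 and the others on station 1, while on MOE430B the 3 arrays shared station 1.

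The SLRP genes split by signal. Bgn and Ogn were above the limit on 3 of 3 arrays, Dcn and Aspn on 2, and Omd on 1, while Lum, Fmod and Prelp stayed below it on every array. The 2 of 8 members above the limit on all arrays compare with 25.3% of 18193 measured genes, so the share of the family was near that of genes at large. On MOE430A alone the same 2 of 8 compare with 29.1% of genes, and on MOE430B Dcn, the sole member there, was below the limit, against 13.1% of genes above it. Counted by probe set, 4 of the 19 were above the limit on 3 of 3 arrays, 5 on 1 or 2 arrays and 10 on none. The 4 were all among the 18 on MOE430A, against 23.1% of single-gene probe sets there, and 0 of 1 on MOE430B compares with 9.39%. The count of genes was 4 when 2 of 3 arrays sufficed, and 1 at the 99th percentile limit or where a majority of its probe sets was required, Bgn in both cases.

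**Figure D1:**
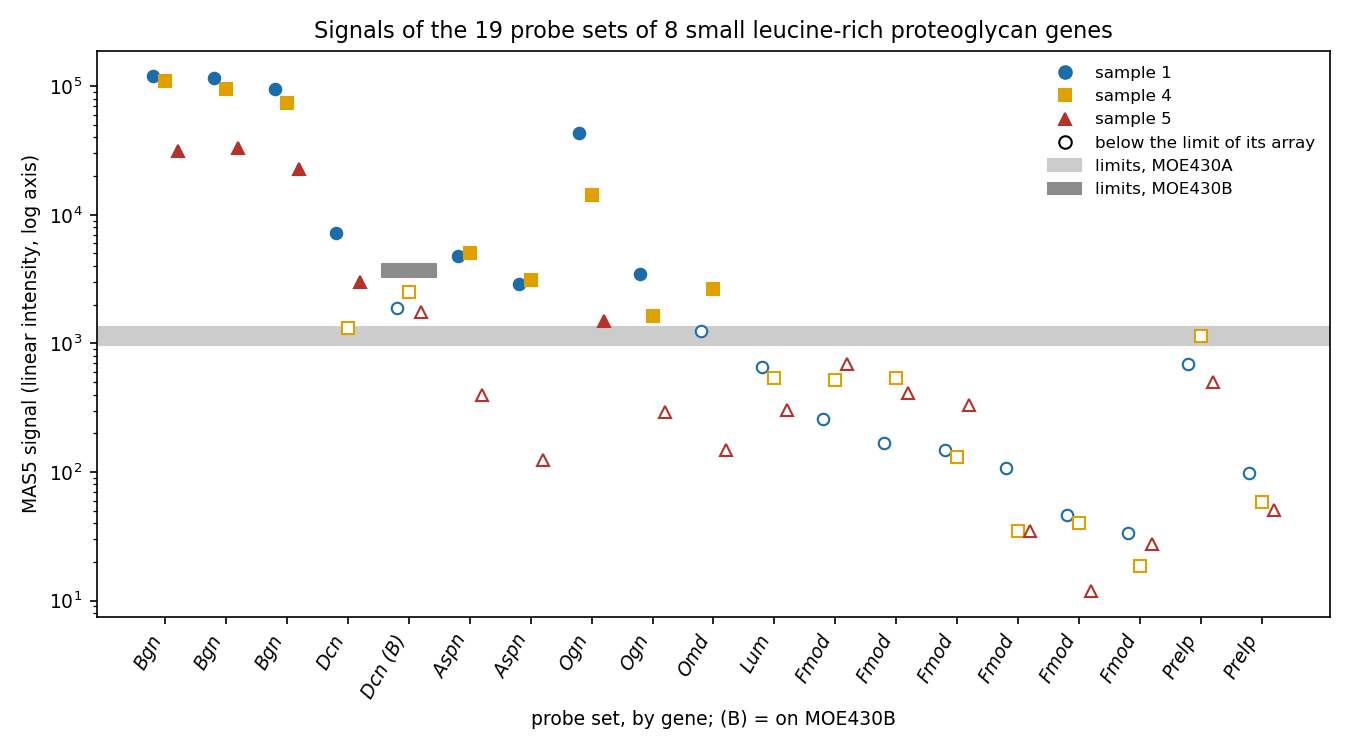
Signals of the 19 probe sets in samples 1, 4 and 5 (log axis), grouped by gene, with open symbols for signals below the limit of their own array. The grey band spans the limits of the MOE430A arrays and the darker block those of MOE430B, which apply to the Dcn probe set marked (B). The 3 probe sets of Bgn lie far above the band in all samples, and those of Aspn drop below it in sample 5. That of Omd exceeds its limit in sample 4 only, and those of Lum, Fmod and Prelp never exceed the limit.

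Among the class I genes, Bgn gave the firmest signal. Biglycan carries glycosaminoglycan chains and acts on collagen assembly, BMP signalling and, when released, on Toll-like receptors. Its probe set 1437889_x_at read 118890, 109127 and 31149, which is 90.6, 81.6 and 32.2 times the limit of the arrays. The mean was 86389 ± 48088 (SD, n = 3). Samples 1 and 4 were close and sample 5 was low, 3.82-fold below sample 1 and 3.50-fold below sample 4. The ending _x_at marks a probe set that can match several transcripts, but the other 2 Bgn probe sets had the same order. Probe set 1448323_a_at read 116671, 94444 and 33264, and 1416405_at read 94932, 73560.1 and 22718. Over the 3 probe sets sample 5 was thus between 3.51-fold and 4.18-fold below sample 1.

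Dcn, which encodes the decorin that coats collagen fibrils and sequesters TGF-beta, had another order. On MOE430A its single probe set 1449368_at read 7178, 1327 and 2978, with a mean of 3828 ± 3016 (SD, n = 3). Sample 1 was high and sample 4 low, just under its limit at 0.992 times it, and sample 5 lay between them. Sample 4 was at least 5.37-fold below sample 1. The Dcn probe set on MOE430B, 1441506_at, read 1883, 2501 and 1744, below the limit of each array, and so gave no order to set beside this one.

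Aspn encodes asporin, a relative of decorin with a run of aspartate residues, which binds collagen and TGF-beta in cartilage and periodontal ligament. Probe set 1416652_at read 4759, 5035 and 398, and 1448421_s_at read 2913, 3090.2 and 125. Samples 1 and 4 were alike and above the limit with both probe sets, and sample 5 was below it with both. Since a signal below the limit gives only a bound, sample 5 was at least 4.92-fold below sample 1 and at least 5.20-fold below sample 4 with the brighter probe set. With the other it was at least 3.01-fold and at least 3.19-fold below them.

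Of the class II genes only Omd exceeded the limit, and in sample 4 alone. Osteomodulin is a keratan sulfate proteoglycan of bone and tooth that binds collagen and cells. Probe set 1418745_at read 1257, 2659 and 149, which put sample 1 just under the limit (0.959 times it) and sample 5 far under it (0.154 times). Sample 4 was at least 2.75-fold above sample 5. Lum, whose product spaces the collagen fibrils of the cornea and skin, read 657, 541 and 304 with 1423607_at, between 0.314 and 0.501 times the limit.

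Fmod encodes fibromodulin, which binds type I collagen and guides its cross-linking in tendon. It had 6 probe sets, 5 of them ending in _x_at, with signals between 11.8 and 690.3. The brightest, 1437718_x_at, read 260.0, 522 and 690.3, at most 0.713 times the limit, and the samples were ranked differently by different Fmod probe sets. Prelp, whose protein anchors basement membranes to connective tissue through an arginine- and proline-rich end, read 690, 1132 and 497 with 1416321_s_at and 98.5, 58.1 and 50.7 with 1416322_at. A signal under the limit was not shown to be absent expression, since probe sets differ in how well they bind.

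Ogn, the class III gene, showed the widest spread of all members. Osteoglycin, also called mimecan, is a keratan sulfate proteoglycan of the cornea that also occurs in bone. Probe set 1419663_at read 43416, 14352 and 1486, all above the limit, with a mean of 19751 ± 21480.4 (SD, n = 3), so that the SD exceeded the mean. Sample 5 was 29.2-fold below sample 1 and 9.66-fold below sample 4, and sample 1 was 3.03-fold above sample 4. The second probe set, 1419662_at, gave the same order at lower signals, with 3454, 1647 and 292, the last below the limit. By it, sample 5 was at least 3.57-fold below sample 1.

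Aspn, Omd and Ogn follow each other on mouse chromosome 13 when protein-coding genes are ordered by start position in RefSeq (GRCm38.p6). A gene that begins earlier and runs across them would not be seen in this order. The 250 bases before each annotated start are shown because these 3 neighbours were low in the same sample. That of Bgn, on chromosome X, is shown beside them as the member with the firmest signal. Promoter entries matched 6 of the 8 members, all but Dcn and Lum. Capitals mark matches, on either strand, to the TATA box letters TATAAA, the AP-1 motif TGANTCA, the TEAD motif GGAATG or the GC box GGGCGG.
Aspn, chr13:49544193-49544442, plus strand: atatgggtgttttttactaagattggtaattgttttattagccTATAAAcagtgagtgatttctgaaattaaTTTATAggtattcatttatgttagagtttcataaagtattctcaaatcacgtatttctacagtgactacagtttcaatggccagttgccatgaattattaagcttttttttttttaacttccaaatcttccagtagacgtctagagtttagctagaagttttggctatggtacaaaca
Omd, chr13:49582212-49582461, plus strand: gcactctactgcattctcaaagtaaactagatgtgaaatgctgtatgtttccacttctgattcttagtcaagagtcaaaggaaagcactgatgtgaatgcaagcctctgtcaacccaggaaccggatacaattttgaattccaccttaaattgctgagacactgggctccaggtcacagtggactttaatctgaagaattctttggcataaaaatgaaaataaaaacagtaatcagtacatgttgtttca
Ogn, chr13:49607765-49608014, plus strand: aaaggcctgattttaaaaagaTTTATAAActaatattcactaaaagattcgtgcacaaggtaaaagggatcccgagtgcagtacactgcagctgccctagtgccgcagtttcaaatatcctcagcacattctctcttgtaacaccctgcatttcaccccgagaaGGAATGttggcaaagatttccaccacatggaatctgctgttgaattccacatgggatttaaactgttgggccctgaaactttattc
Bgn, chrX:73483351-73483600, plus strand: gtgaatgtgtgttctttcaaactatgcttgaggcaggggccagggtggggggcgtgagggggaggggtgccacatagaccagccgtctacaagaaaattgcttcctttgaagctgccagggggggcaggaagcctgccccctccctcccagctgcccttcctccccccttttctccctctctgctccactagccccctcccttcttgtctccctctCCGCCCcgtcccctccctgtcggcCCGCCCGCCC

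The upstream regions of the chromosome 13 genes were poor in G and C, with 30.0% for Aspn, 38.4% for Omd and 42.0% for Ogn. That of Bgn had 64.4%, and the median over the 32851 promoters of the table was 52.4%. Aspn held 2 matches to TATAAA, and Ogn 2 overlapping ones, on opposite strands, far from the start. The motif is found in 12.4% of all upstream regions of this length. Ogn also held 1 match to GGAATG, found in 12.6%. Bgn held 3 matches to GGGCGG, found in 32.7%, the last 2 sharing bases. No AP-1 match, found in 6.75% of regions, was present in the 6 members with an entry, and Omd, Fmod and Prelp held none of the 4 motifs. These are matches of letters and not known sites.

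The samples were then compared by the deviation of each gene, its log2 signal in 1 sample minus the mean log2 signal of the others, on MOE430A and with the brightest probe set of each gene. A deviation past 2-fold (1 on the log2 scale) was counted. The members and the gene lists below were chosen with earlier results of these data known. Their counts, and the shares of genes beside them, are therefore a description and not a test. By median, the SLRP genes departed most in sample 5. Of the 8 members, 4 were at least 2-fold lower in sample 5 than in the others, against 13.9% of the 12393 genes measured on MOE430A. They were Ogn, Aspn, Omd and Bgn, with deviations of -4.07, -3.62, -3.61 and -1.87. No member was at least 2-fold higher there, against 10.7% of genes. Lum and Prelp, at -0.97 and -0.83, did not reach 2-fold, from signals below the limit. Dcn was at -0.05 in sample 5, but at 1.17 without sample 1 and -1.27 without sample 4, since it lay between them, and Fmod was at 0.91. The median over the 8 members was -1.42, against -0.11 over all genes.

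Sample 1 was at the other side. Ogn (3.23), Dcn (1.85), Aspn (1.75) and Bgn (1.03) were at least 2-fold higher there, 4 of 8 members against 13.4% of genes, and Omd stood at the edge of the count (just under 1.00). Fmod was at least 2-fold lower, 1 of 8 against 11.4%, from signals below the limit. In sample 4, Omd (2.62) and Aspn (1.87) were at least 2-fold higher, 2 of 8 against 9.72%, and Dcn was at least 2-fold lower (-1.80), 1 of 8 against 9.17%. Because each deviation is taken from the other samples, the low signals of sample 5 raise the deviations of samples 1 and 4. With sample 5 left out, the median over Bgn, Ogn, Dcn and Aspn, the members kept by the filter below, was 0.86 in sample 1 and -0.86 in sample 4. Omd also passes the filter in samples 1 and 4 alone, and with it the medians were 0.12 and -0.12.

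Weak signals entered some of these values. Only Bgn, Ogn, Dcn and Aspn had a mean log2 signal above the mean log2 limit, and the filter takes the mean so as not to drop genes that are low in 1 sample. It can drop genes that are high in 1 sample alone. Aspn passed it through samples 1 and 4 and was at 0.411 times the limit in sample 5, so its count as low depends on how it was kept. Of these 4, Ogn, Aspn and Bgn were at least 2-fold lower in sample 5, against 7.97% of 4528 genes passing the same filter, with a median of -2.75 against -0.04, and 0 were at least 2-fold higher, against 7.73%. Ogn, Aspn and Bgn had their lowest signal in sample 5, 3 of 4 against 40.5% of passing genes. Of the 6 member probe sets passing the filter, 5 were lowest in sample 5, against 38.8% of passing probe sets. As 3 of the 5 belong to Bgn, this repeats the count by gene and adds nothing to it. All 4 were at least 2-fold higher in sample 1, against 6.32%. In sample 4 Dcn was at least 2-fold lower, against 2.74%, and Aspn at least 2-fold higher, against 3.03%. With weak signals set to the limit, the deviation in sample 5 was -2.34 for Aspn and -0.95 for Omd, which was then no longer past 2-fold, while those of Ogn and Bgn stayed at -4.07 and -1.87.

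**Figure D2:**
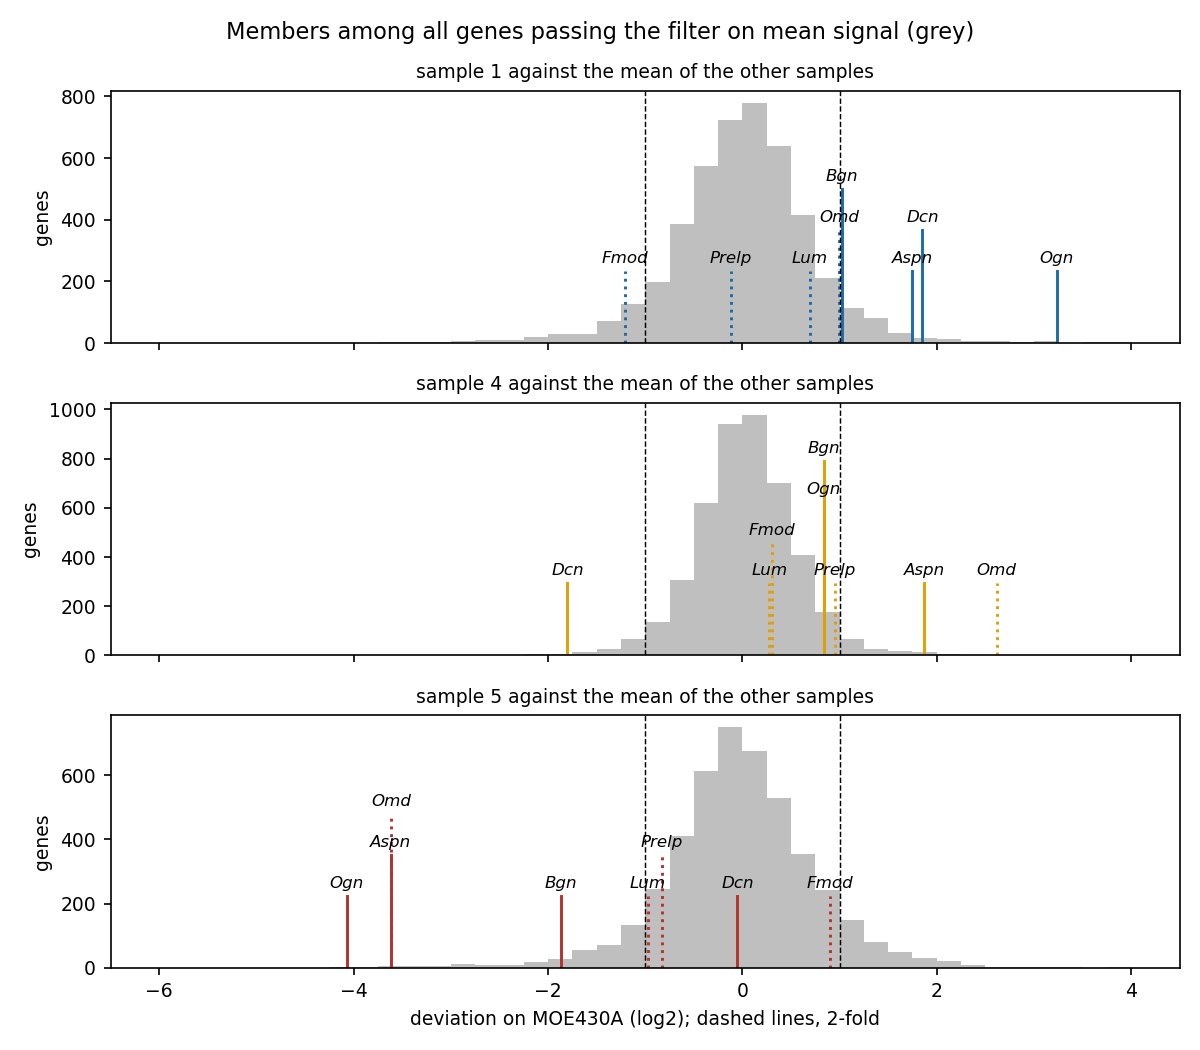
Deviation of each SLRP gene (coloured lines, dotted where the gene fails the filter on mean signal) on a histogram of the 4528 MOE430A genes passing the filter (grey), for samples 1, 4 and 5, with dashed lines at 2-fold. Ogn, Aspn, Omd and Bgn lie in the left tail in sample 5, at -4.07 to -1.87, Dcn lies near 0 there, and in sample 4 Dcn lies at -1.80.

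Other measurements moved with the same samples. The summed signal of the 12 fibroblast markers was 432186, 463867 and 196405 on MOE430A, lowest in sample 5. Without Col1a1, Col1a2 and Col3a1, which are also in the collagen list below, it was 159481, 262256 and 138109. Of the 11 fibroblast markers passing the filter, 9 were lower and 2 higher in sample 5 than in the others, the 2 being Vim (0.34) and Pdgfra (0.58). At least 2-fold lower there were 7 of the 11, against 7.97% of passing genes. Of the fat cell markers, Fabp4 read 266, 250.5 and 2991, above the limit in sample 5 only, while Adipoq and Pparg were below it on every array, and the summed signal of the 5 was 894, 1031 and 3238. Without Fabp4 the other 4 summed to 628, 781 and 247, lowest in sample 5, so that Fabp4 alone carried the higher sum. Of 13 cell cycle genes passing the filter, 11 were at least 2-fold lower in sample 1, with the kinase gene Cdk1 at 1809, 10433 and 4459. On MOE430A sample 5 had the lowest 3' to 5' ratio of Gapdh and was alone on its fluidics station. The part of these differences in the SLRP values was not tested, and with bulk RNA, fewer cells of a type and less RNA per cell cannot be told apart. On MOE430B, where the samples shared a station, the sole SLRP probe set was below the limit, so these arrays give no second reading of the members. Companion genes of the lists below went both ways in sample 5 on MOE430B, but of those passing the filter only Adamts5 deviated past 2-fold. Adamts5, a protease gene of the turnover list, was lower, with 21198, 16301 and 2968, the last below the limit. Mmp14 of the same list read 1285, 1087 and 1774, all below the limit. Podn and Chsy1, of other lists, were higher in sample 5, with deviations of 0.44 and 0.78, short of 2-fold. Col12a1 of the collagen list failed the filter and read 3413.5, 6127 and 190.8, above the limit in sample 4 only. Ecm2 and Chsy3 also failed the filter and were at least 2-fold higher in sample 5, on signals below the limit. The part of the station was not tested.

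Of the companion lists, the collagens that SLRPs bind had the lowest median deviation in sample 5 on MOE430A. Of 11 such collagen genes measured on MOE430A, 8 passed the filter and all 8 were lowest in sample 5. Of the 8, 7 were at least 2-fold lower in sample 5, against 7.97% of passing genes, with a median deviation of -2.06. The list was chosen with earlier results of these data known, so this count describes the data and tests nothing. Col1a1 and Col1a2, the chains of type I collagen, read 31161, 15904 and 7621 and 183221, 161044 and 43699. Col3a1 and Col5a1, of the types that mix into type I fibrils, deviated by -2.44 and -2.09 in sample 5. Col6a2, of the microfibrillar type VI collagen to which biglycan and decorin bind, read 89284, 37714 and 3714 and deviated by -3.97, close to Ogn. Its partner Col6a1 deviated by -2.93, but the third chain, Col6a3, named here after its values were seen, by -0.38.

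Of the genes for the processing and turnover of SLRPs and their collagens, 6 of 7 passing on MOE430A were at least 2-fold lower in sample 5, against 7.97% of passing genes, with a median deviation of -1.72. This list too was chosen with earlier results known. The filter drops genes that are high in 1 sample alone, and over all 13 measured genes of the list 7 were at least 2-fold lower and 4 at least 2-fold higher in sample 5, against 13.9% and 10.7% of genes. Among the 4 were the collagenase gene Mmp13 (4.38) and the stromelysin gene Mmp3 (2.17), named after their values were seen, which exceeded the limit in sample 5 only. Pcolce, which speeds the trimming of procollagens, read 51434, 34232 and 8828. Mmp2, a gelatinase that cleaves decorin, read 33971, 9627 and 5442, and Adamts1, a protease that cuts large proteoglycans, read 41635, 13960.4 and 4960. Sample 1 was the highest for these 3 genes. Bmp1, whose protease removes the propeptides of biglycan, osteoglycin and procollagens, did not share the pattern, with 1612, 1850 and 1625. Its relatives Tll1 and Tll2 were below the limit.

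The genes of the enzymes that build the sugar chains had smaller median deviations in sample 5 than the collagens. Of 18 genes of chondroitin and dermatan sulfate synthesis on MOE430A, 6 passed the filter, with a median of -0.44 in sample 5. Of these, 0 were at least 2-fold lower there, near the 7.97% of all passing genes. Chpf2, a chain polymerisation gene, read 1780.5, 1357 and 898. Csgalnact1, which starts chondroitin chains, was at least 2-fold higher in sample 5, with 1036, 1623 and 3933. Of the linker enzyme genes, Xylt2, B4galt7, B3galt6 and B3gat3 were below the limit on every MOE430A array. On MOE430B 4 of 11 genes passed, including the polymerase gene Chsy1 (9215, 8095 and 14846) and the sulfotransferase gene Ust (4782, 3494 and 5247). Of keratan sulfate synthesis genes, 1 of 11 was above the limit on all arrays, against 25.3% of all measured genes. This was B4galt1, a galactosyltransferase of many glycans, with 11784, 7648 and 7497. The keratan sulfate sulfotransferase genes Chst2, Chst4 and Chst5 were below the limit on every array. Chst1 read 472, 1230 and 1125 and was above the limit in sample 5 only, where the limit was lowest, though its signal was higher in sample 4.

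Of the growth factors that SLRPs hold, 1 of 10 measured genes was above the limit on all arrays, against 25.3% of all measured genes. This was Pdgfa, named here after its values were seen. Tgfb1 and Bmp2 were below the limit on every array, Tgfb2 was above it in sample 1 only (2694, 357 and 297), and Tgfb3 read 1762, 2664 and 496. Ccn2, a matricellular gene induced by TGF-beta, ran the other way, with 1048, 1544 and 5232. Of 11 genes for cell receptors of SLRPs, 4 were above the limit on all arrays of a design, against 25.3% of all measured genes. The decorin receptor gene Egfr read 3188, 4060 and 2444 on MOE430A. On MOE430B it read 7875, 2868 and 1593, above the limit in sample 1 only, and Igf1r read 15522, 14088 and 13053. Cd14, a co-receptor for biglycan, read 2151, 2576 and 4147, and Met, another decorin receptor gene, read 3354, 7800.1 and 8143 on MOE430B, below the limit in sample 1. None of the 5 receptor genes passing the filter on MOE430A deviated by 2-fold in sample 5. Tlr2 was below the limit on every array, and Itgb1, the integrin beta-1 gene, read 1049, 2751 and 1837.

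**Figure D3:**
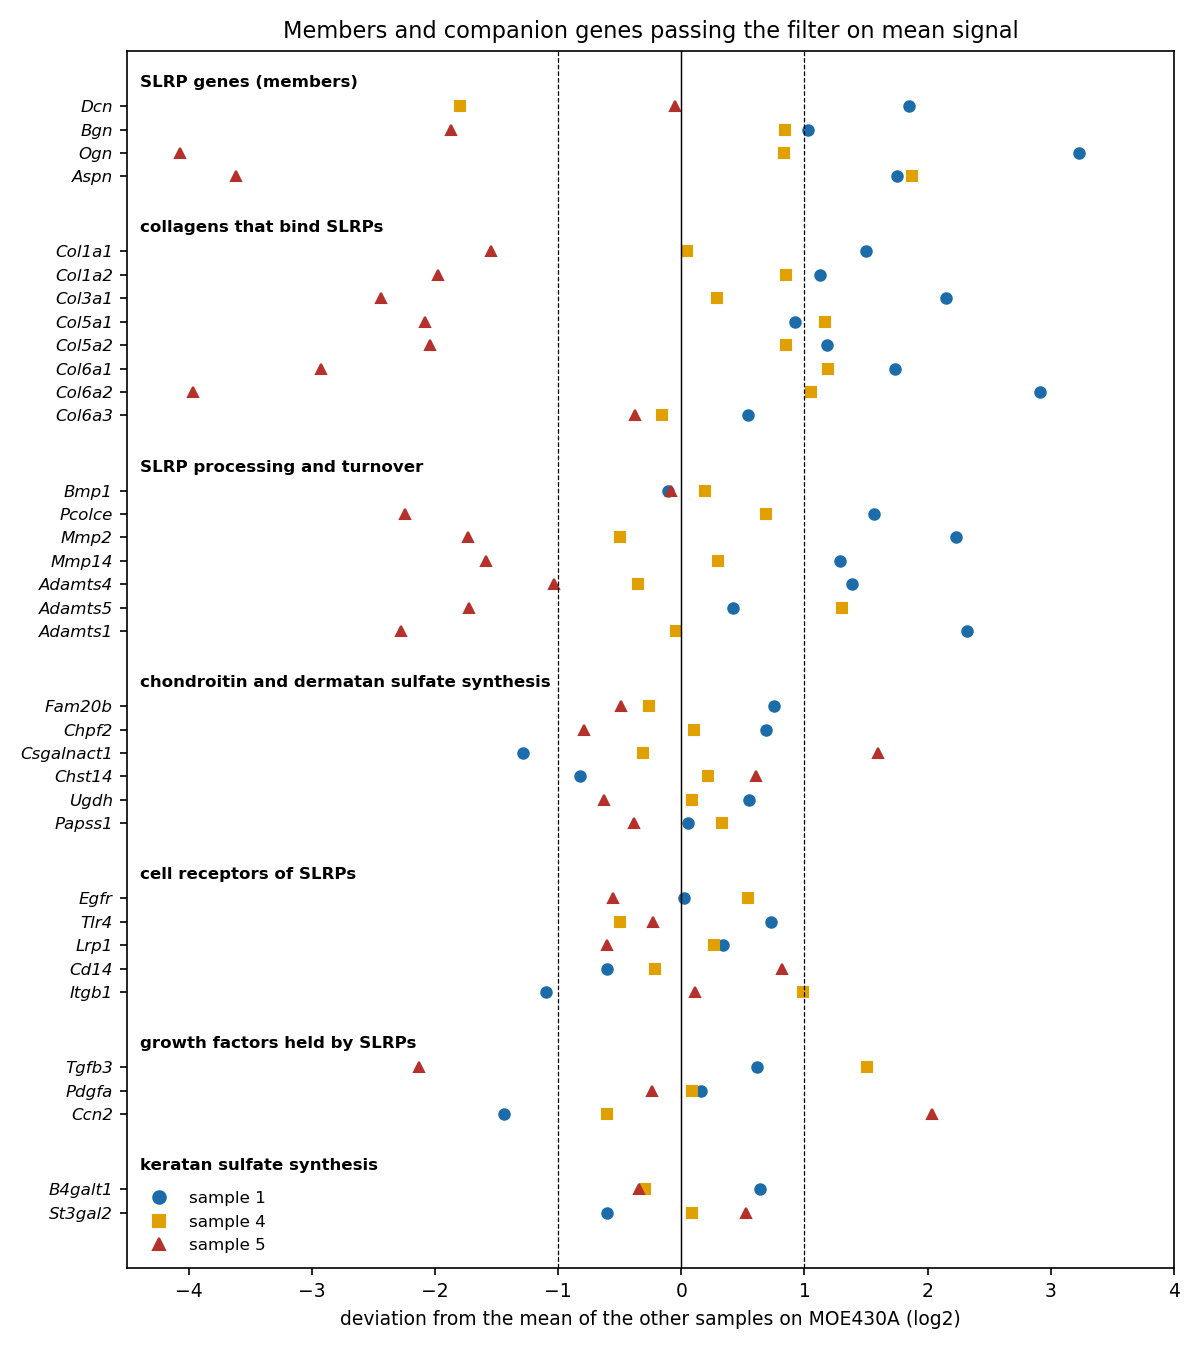
Deviation of samples 1, 4 and 5 (log2, MOE430A) for the 4 SLRP genes passing the filter on mean signal and for the passing genes of 6 companion lists, with dashed lines at 2-fold. Sample 5 lies left of the -1 line for 3 of 4 SLRP genes, 7 of 8 collagens and 6 of 7 genes of processing and turnover, and for 0 of 6 genes of chondroitin and dermatan sulfate synthesis and 0 of 5 receptors. Of all passing MOE430A genes, 7.97% were at least 2-fold lower in sample 5.

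Of the other SLRP family genes, 1 of 7 measured was above the limit, against 25.3% of all measured genes. Podn, which encodes podocan, read 5279, 7241 and 8404 on MOE430B, highest in sample 5, and so did not share the order of Bgn or Ogn. Kera, Epyc, Optc and Chad, genes of cornea, cartilage and eye, were below the limit on every array, as was Nyx.

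Position along the chromosome, looked at after the values were seen, gave the following. Ecm2, an SLRP-related gene next to Aspn, read 475, 1075 and 2004 on MOE430B, and Nol8, the gene next to Ogn, read 349, 914 and 1552, both below the limit. Iars, beyond Nol8, encodes an aminoacyl-tRNA synthetase and was above the limit on 3 of 3 arrays, with 1595, 2026 and 7242, so it was highest where its 3 SLRP neighbours were lowest. On chromosome 10 Dcn and Lum are next to Kera and Epyc, and there Dcn alone of the 4 exceeded the limit. Btg1, on the other side of Dcn, read 4685, 4814 and 12522 and was highest in sample 5. Prelp and Fmod lie with Optc on chromosome 1, and the 3 genes were below the limit on every array.

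**Figure D4:**
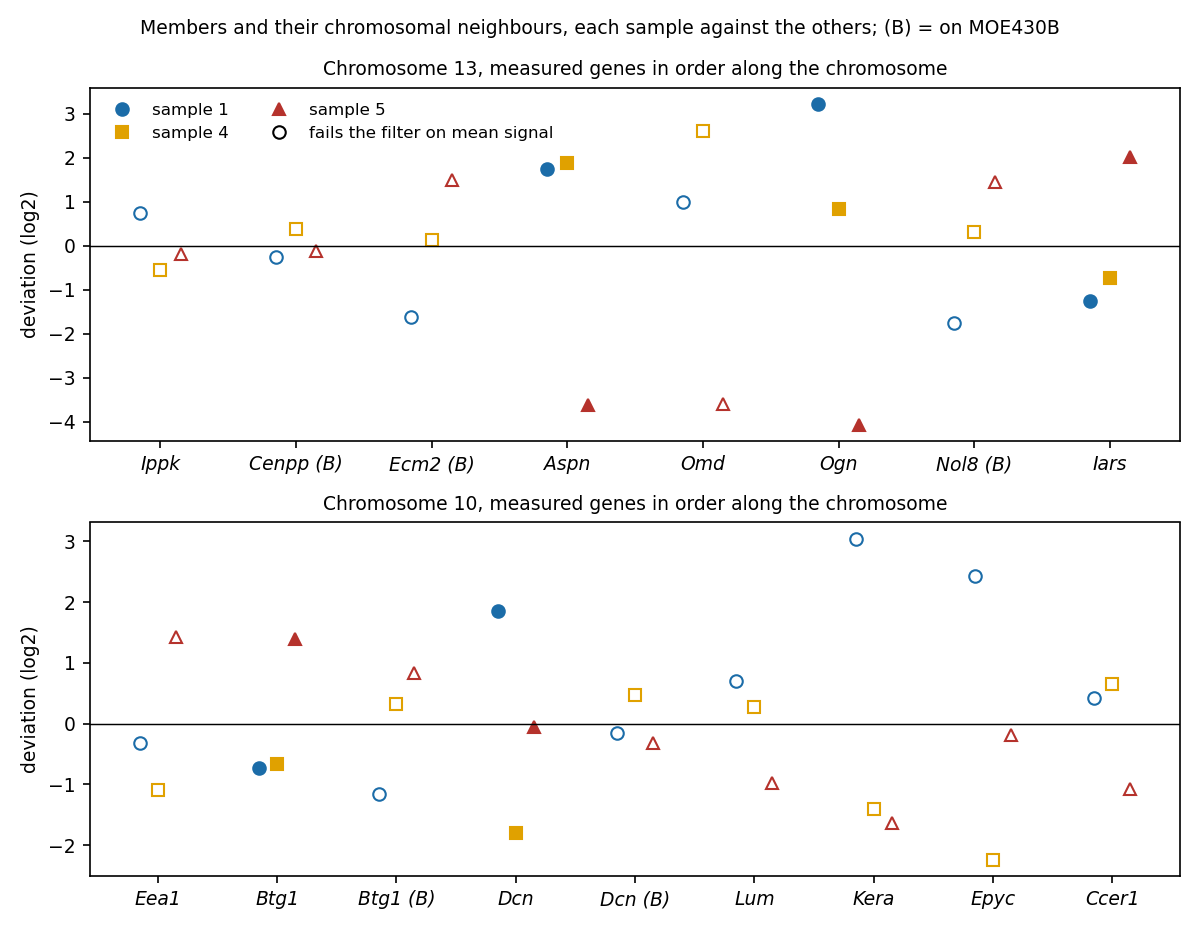
Deviation of samples 1, 4 and 5 (log2) for measured protein-coding genes in their order along chromosomes 13 and 10, with open symbols for genes that fail the filter on mean signal and (B) for MOE430B. Aspn, Omd and Ogn, in the middle of the upper panel, are low in sample 5 at -3.62, -3.61 and -4.07, while Iars is at 2.01 and Dcn, in the lower panel, is low in sample 4.

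The genes most like each member were taken as those with the smallest root mean square difference (RMS) of log2 signals, each gene centred on its own mean over the 3 samples, among the other 4527 genes passing the filter on MOE430A. With 3 samples many genes match closely, so this is a description. For Bgn they were Nfix, Cnn2 and Copz2, with an RMS of 0.022, 0.026 and 0.038 log2 units. Nfix, a transcription factor gene, read 74113, 67287 and 19929.8. For Aspn they were Timp3 (0.11), Ptn (0.17) and Acta2 (0.20), of which Timp3, an inhibitor of matrix proteases, read 33677, 40069.9 and 3398. For Ogn they were Mme (0.13), Col6a2 (0.15) and Ccn3 (0.23), and Mme, a cell surface peptidase gene, read 5886, 1807 and 233. For Dcn they were Rhno1 (0.097), Hacd3 (0.20) and Marcksl1 (0.21), with Hacd3, an enzyme gene of fatty acid elongation, at 12383, 3185 and 6421. No gene appeared among the likest of more than 1 member.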

How the data were processed

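For every array the authors deposited an intensity value of each probe set. The submitters' processing notes name MAS5 as the source of these values, without a version in the sources used here. Each array had been scaled on its own, with a mean of 1500 to 1501 after trimming 2% at each end, so the designs were kept apart. Gene symbols came from the platform annotation, updated through RefSeq (GRCm38.p6). The run settings files were read for array design, sample name, fluidics station and module, chip lot and hybridisation day. Within a design the arrays shared 1 lot and 1 hybridisation day, and the designs were hybridised on different days. The number of arrays limits the precision.

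Signals were set to at least 1 and taken to log2, and limits, deviations and counts were computed with Python 3.11.15, numpy 2.4.6 and pandas 2.3.3. The deviations and the 2-fold call were tested on simulated data, while the limits and the filter on mean signal were not. No test between groups was possible with 1 group. Of the background genes, Hcrt, Lor, Oxt and Apoh were themselves above the limit. Named genes, beside the members, were the first 4 measured genes of each companion list and design, the 2 with the largest range among those passing the filter, the first 3 markers of a list, and the 3 likest genes per member. A gene was given by its brightest probe set on a design. The members and lists were chosen with earlier results of these data known.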

Additional observations from a re-analysis of the deposited data

How the results depend on the processing

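The number of members above the limit was 2, and 1 at the 99th percentile limit, 4 when 2 of 3 arrays sufficed and 1 where a majority of its probe sets was required; with a sample left out it was 2 to 3. The number of member probe sets above it was 4, then 8 when 2 of 3 arrays sufficed, and 4 to 7 with a sample left out, 7 of them without sample 5. The median deviation of the passing members was -2.75 in sample 5 and -2.70 to -2.54 with another sample left out. In sample 1 it was 1.80, and 2.70 without sample 4. In sample 4 it was 0.84, and 2.54 without sample 1. Without sample 5 Omd passes the filter too, and the medians were 0.12 in sample 1 and -0.12 in sample 4, or 0.86 and -0.86 over the same 4 members, a setting added after seeing the data. The count of passing members at least 2-fold lower in sample 5, whose alternatives were chosen after seeing the data, was 3, and 3 to 4 with a sample left out. Quantile normalisation, pseudocounts of 16 and 64, removal of probe sets ending in _s_at or _x_at and the median over a member's probe sets kept the direction of the 3 median deviations. Of single members in sample 5, Omd moved by more than its spread, to -0.95 with weak signals raised to the limit, under which most of its signals lie. Fmod, at 0.91, moved to 0.16 over its 6 probe sets. With weak signals raised it stood at -0.45, as did Lum and Prelp. All signals of these genes lie below the limit, so that value is set by the limits of the arrays and not by the genes. Dcn, at -0.05, was at 1.17 without sample 1 and -1.27 without sample 4, past 2-fold in opposite directions. Lum and Prelp were also past 2-fold lower with a sample left out, at -1.11 without sample 4 and -1.19 without sample 1, on signals below the limit. No paired analysis was possible because the 2 array designs hold the same 3 samples of 1 group and no test compares them.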

Other observations

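These companion and marker genes were named after their values were seen. The genes Mmp13 and Mmp3, of the turnover list, were highest in sample 5. Mmp13 read 61.4, 131 and 1871 in samples 1, 4 and 5 on MOE430A, and Mmp3 read 639, 381 and 2216. Both exceeded the limit in sample 5 only. Adamts5, a protease gene that cuts aggrecan, was low in sample 5 on both designs, with 3486, 5236 and 1293 on MOE430A and 21198, 16301 and 2968 on MOE430B. Prrx1, a transcription factor gene of mesenchyme, read 11493, 24032 and 12584 on MOE430A and 31363, 25376 and 10064 on MOE430B, so its probe sets did not rank the samples alike. Pdgfra, a receptor gene of fibroblasts, was not low in sample 5 on either design, with 8198, 4006 and 8560.1 on MOE430A and 4679, 4549 and 6229 on MOE430B. St3gal3, a sialyltransferase gene of the keratan sulfate list, read 1342, 1428 and 165, and Bmp4, a growth factor that biglycan binds, read 2433, 2127 and 221. Both were below the limit in sample 5.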
